A study of Mus musculus with 10 samples.

Results

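The genes described here are 36 genes of glucose uptake, glycolysis, lactate handling and the entry of pyruvate into the mitochondria, taken by symbol from a given list out of the 24594 genes counted. Their transcripts were measured by RNA sequencing in luminal cells, which line the ducts of the mouse mammary gland, and in basal cells, the contractile layer around them. Both cell types were freshly isolated from virgin, wild-type C57BL/6J mice and separated by flow cytometry, with EpCAM and CD49f as surface markers. The study's isolation protocol lysed red cells and stained blood and endothelial cells with antibodies to TER-119, CD45 and CD31 before the sort. There were 5 luminal and 5 basal libraries, with 13203146 to 17998165 counts in each. Animals in the study's experiments were 12 to 20 weeks old, with no age given for single libraries, and the labels name no treatment, transgene or deletion. They divide luminal cells no further.

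Glucose enters a cell through facilitative transporters and is trapped by hexokinases. A chain of enzymes then splits it into triose units and oxidises these to pyruvate, with phosphofructokinase as the main point of control. Pyruvate is either reduced to lactate and exported by monocarboxylate carriers or oxidised in mitochondria by the pyruvate dehydrogenase complex, which a family of kinases switches off. Most steps have several isoenzymes, encoded by separate genes that tissues use in different proportions. In the mammary gland, glucose is also the precursor of lactose, which luminal cells make once they secrete milk.

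Groups follow the label for cell type. Each of the 10 titles names the other cell type, while source name and the B or L of the description side with the label. All 8 luminal markers examined, among them Krt8 and Prlr, were higher in the libraries labelled luminal, and all 6 basal markers, among them Krt14 and Trp63, were higher in those labelled basal (edgeR, adjusted p under 0.05). The study's methods speak of biological replicates for RNA sequencing, and the number that opens each description was read as the animal. The labels say neither, so p-values cover the spread between these libraries. In sorted bulk samples, fewer cells expressing a gene and less RNA per cell cannot be told apart.

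Some markers of other cells differed between the groups. The 5 immune markers summed to 4.13 to 11.3 CPM in luminal and 12.2 to 34.4 CPM in basal libraries, where Cd74 made up most of the sum (log2 fold change -2.97, SE 0.36, adjusted p = 6.23e-06). Cd52 and Lyz2 were higher in luminal cells, with Ptprc, which encodes CD45, at 0.381 CPM or less in every library and Cd3e at 0 in all. The 3 endothelial markers summed to 1.58 to 4.06 CPM in luminal and 5.73 to 12.4 CPM in basal libraries; Cdh5 was higher in basal cells (log2 fold change -4.37, SE 0.51, adjusted p = 3.51e-06), and Pecam1, which encodes CD31, did not pass the test (adjusted p = 0.296). The 4 fibroblast markers summed to 17.8 to 107 CPM in luminal and 22.8 to 36.3 CPM in basal libraries, with Dcn at 95.1 CPM in luminal library 1. Dcn was higher in luminal cells (log2 fold change 1.67, SE 0.43, adjusted p = 0.00364) and Pdgfra in basal cells (-1.09, SE 0.30, adjusted p = 0.00594). The 3 nerve markers summed to 1.88 to 7.86 CPM in luminal and 2.76 to 4.61 CPM in basal libraries. The part of such cells in the results was not tested.

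Basal cells held more transcript of the glucose transporters Slc2a1, Slc2a3 and Slc2a4, of the phosphofructokinases Pfkp and Pfkl, of both lactate dehydrogenases and of both lactate carriers. Luminal cells held more transcript of Bpgm, Aldoc, Pfkfb2 and Pfkfb4. Of the 36 genes, 34 had enough counts to be tested, and Hk3 and Pfkfb1 did not. Of these, 24 differed at an adjusted p under 0.05 (edgeR quasi-likelihood test), close to the 64.8% of all 14609 genes tested that did so. The directions were 17 higher in basal cells, where 31.2% of all genes tested were, and 7 higher in luminal cells, where 33.6% were. On library totals without scaling factors, 14 were higher in basal and 8 in luminal cells, against 25.4% and 39.1% of all genes. A change of at least 2-fold was seen in 13 genes higher in basal cells, against 19.1% of all genes, and in 4 higher in luminal cells, against 20.9%. For 19 of the 34 genes the values of luminal and basal libraries did not overlap, against 50.1% of all genes; on library totals Pdk3 overlapped too, and with DESeq2 size factors Hk2 no longer did. The median log2 fold change, luminal against basal, was -0.41 over the 34 genes and 0.046 over all genes tested.

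**Figure D1:**
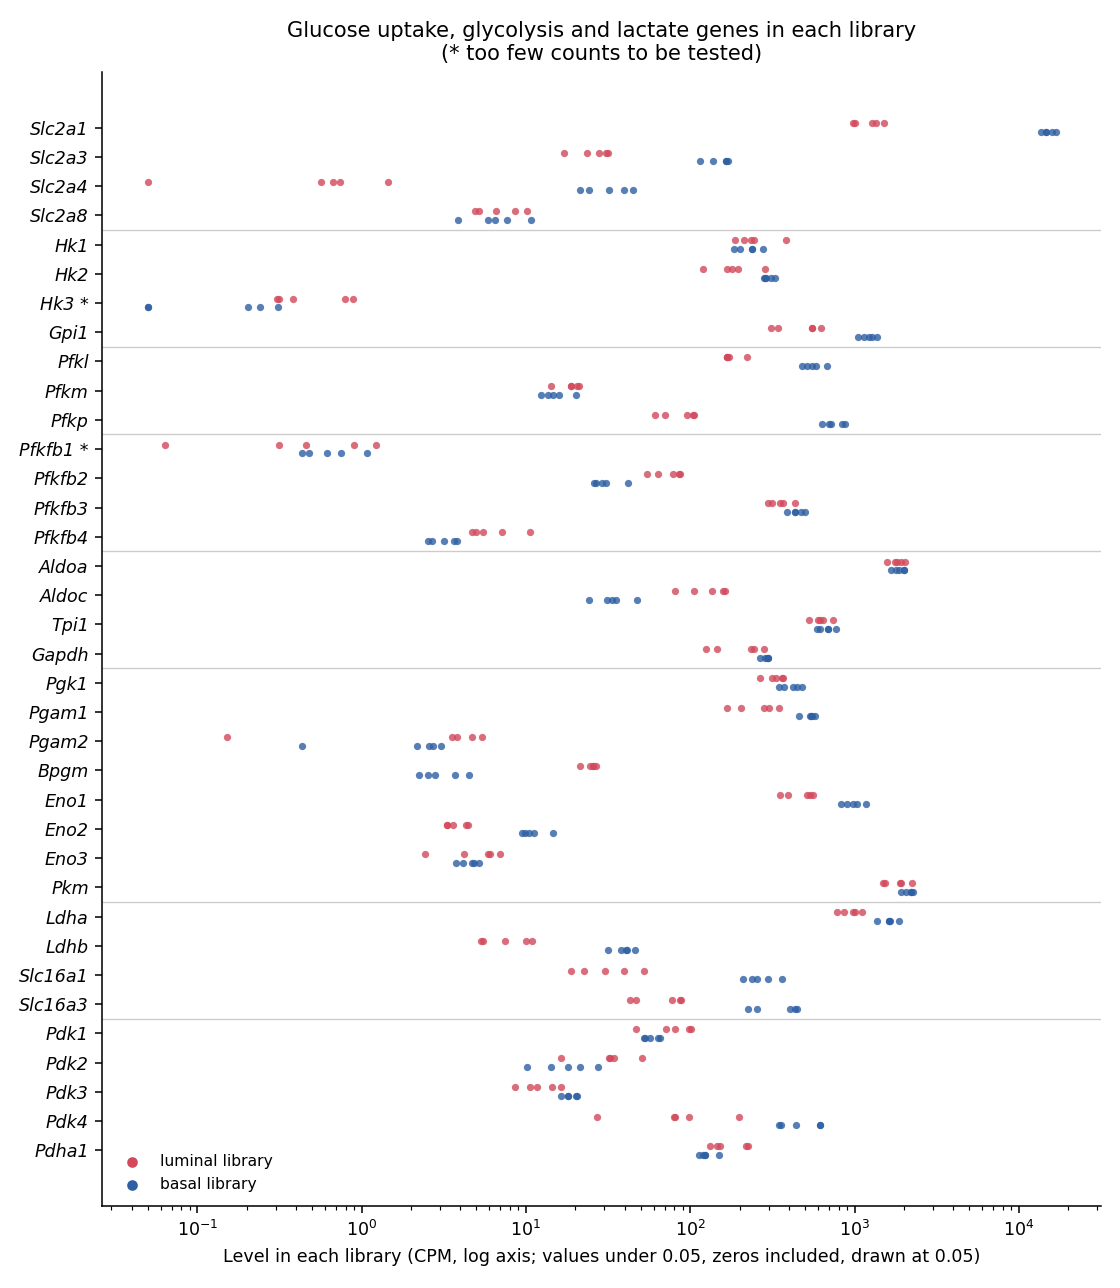
Level of each of the 36 genes in each of the 10 libraries, in CPM on a log axis, in pathway order from transporters (top) to pyruvate dehydrogenase (bottom), with grey lines between roles. Red points are luminal and blue points basal libraries; the 2 colours stand apart for Slc2a1 and for 18 further genes among the 34 tested, 19 in all.

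Start-site windows of Slc2a1, Slc16a3 and Ldha, higher in basal cells, and of Bpgm, higher in luminal cells, are shown because these genes carry the contrast between import, export and the luminal branch enzyme. The sequences are from RefSeq (GRCm38.p6), 5′ to 3′, and run from 250 bases before to 50 after the annotated start, with the first window taken where a gene has more. Capitals mark ACGTG or GCGTG, cores of the element bound by hypoxia-inducible factors, read on both strands (so also as CACGT or CACGC), and the CArG box bound by serum response factor. ACGTG is contained in CACGTG, the E-box bound by Myc and its relatives, which counts once on each strand.
Slc2a1 (chr4:119108495-119108794, plus strand): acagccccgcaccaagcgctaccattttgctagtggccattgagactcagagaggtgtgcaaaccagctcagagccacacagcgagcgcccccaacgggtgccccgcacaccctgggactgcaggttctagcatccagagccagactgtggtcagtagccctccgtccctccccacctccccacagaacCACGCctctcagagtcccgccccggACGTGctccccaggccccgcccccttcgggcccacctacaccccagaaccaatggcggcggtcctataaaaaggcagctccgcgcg
Slc16a3 (chr11:120948817-120949116, plus strand): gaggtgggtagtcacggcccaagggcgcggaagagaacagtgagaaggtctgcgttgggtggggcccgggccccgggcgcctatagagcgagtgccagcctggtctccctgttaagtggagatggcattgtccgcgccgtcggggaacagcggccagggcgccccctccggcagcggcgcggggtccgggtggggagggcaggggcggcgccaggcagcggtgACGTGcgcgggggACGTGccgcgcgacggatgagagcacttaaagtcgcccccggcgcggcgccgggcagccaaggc
Ldha (chr7:46845554-46845853, plus strand): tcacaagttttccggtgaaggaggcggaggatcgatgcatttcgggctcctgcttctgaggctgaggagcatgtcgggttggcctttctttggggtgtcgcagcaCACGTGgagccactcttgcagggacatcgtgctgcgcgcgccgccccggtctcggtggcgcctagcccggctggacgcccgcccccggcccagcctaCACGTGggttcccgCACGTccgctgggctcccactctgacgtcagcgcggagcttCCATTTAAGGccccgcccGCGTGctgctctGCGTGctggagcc
Bpgm (chr6:34476106-34476405, plus strand): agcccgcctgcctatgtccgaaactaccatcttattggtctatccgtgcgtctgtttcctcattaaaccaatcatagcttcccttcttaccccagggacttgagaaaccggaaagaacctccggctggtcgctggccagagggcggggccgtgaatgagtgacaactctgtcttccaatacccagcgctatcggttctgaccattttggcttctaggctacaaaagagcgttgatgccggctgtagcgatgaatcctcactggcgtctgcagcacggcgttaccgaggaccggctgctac

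Counted from the start site, Slc2a1 held 1 ACGTG at -36 and 1 GCGTG at -61, and Slc16a3 held ACGTG at -27 and -14. The Ldha window held 5 matches to ACGTG, of which 4 were the 2 strands of 2 CACGTG elements, together with 2 matches to GCGTG and 1 CArG box at position 8. The Bpgm window held none of these letters. The first windows of Aldoc and Pfkfb2, also higher in luminal cells, held 1 and 2 matches to ACGTG and 2 to GCGTG in each. Those of Gpi1 and Eno2, higher in basal cells, held none, so the 4 windows shown do not describe each direction as a whole. Windows were found for 34 of the 36 genes (53 windows, some overlapping); Slc2a3 and Slc2a4 were not matched. ACGTG was present in 22 of the 53 windows (41.5%) and in 19.6% of all 32851 windows of the same length, GCGTG in 28 (52.8%) against 32.4%, and the CArG box in 1 (1.89%) against 1.63%. A match describes letters in a window, not a site in use.

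Of the 4 glucose transporters, 3 were higher in basal cells, where 31.2% of all genes tested were. Slc2a1 (Entrez 20525, chr4:119108745-119137330, GRCm38) encodes GLUT1, the basal-uptake transporter of most cells. Luminal libraries 1 to 5 held 1354, 1514, 1274, 978 and 1007 CPM (the count scaled to library depth), and basal libraries 1 to 5 held 16765, 14726, 15906, 14649 and 13614 CPM. Every basal library was above every luminal library, and the lowest basal value was several times the highest luminal one. The mean was 12.3-fold higher in basal cells, a log2 fold change of -3.63 (SE 0.20, adjusted p = 2.53e-09). Slc2a1 was the most counted gene of all in basal libraries 1, 2, 3 and 5 and ranked 2 in basal library 4, while in luminal libraries it ranked from 44 to 124. It took 1.31% to 1.503% of all counts in a basal library and 0.0970% to 0.164% in a luminal one. The 36 genes together took 2.69% ± 0.143 (SD, n = 5) of basal and 1.08% ± 0.197 (SD, n = 5) of luminal counts; without Slc2a1 these shares were 1.28% ± 0.0880 and 0.946% ± 0.171.

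Slc2a3 encodes GLUT3, a transporter of high affinity known from neurons. Its luminal libraries held 30.6, 31.5, 27.97, 17.03 and 23.7 CPM and its basal libraries 164, 165, 171, 138 and 115 CPM. The groups did not overlap, with a log2 fold change of -2.52 (SE 0.18, adjusted p = 3.09e-08). Slc2a4 encodes GLUT4, the insulin-responsive transporter of muscle and fat. It was at 0.563, 0.737, 0.675, 0 and 1.46 CPM in luminal libraries and at 21.3, 44.9, 39.5, 32.01 and 24.3 CPM in basal libraries, so it was close to undetected in luminal cells. The log2 fold change of Slc2a4 was -5.51 (SE 0.45, adjusted p = 1.07e-07), the largest of the 34 genes.

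Because GLUT4 marks muscle and fat, markers of both were read beside it. The 6 skeletal muscle markers summed to 2.56 to 5.52 CPM in luminal and 68.9 to 132 CPM in basal libraries, but nearly all of the basal sum was the actin gene Acta1 at 67.4 to 131 CPM, while Myh4 and Tnnt3 were at 0 in every basal library. The 5 adipocyte markers summed to 0.611 to 2.26 CPM in luminal and 3.95 to 8.88 CPM in basal libraries, mostly Fabp4, and Adipoq was at 0 in all 10 libraries. The part of other cells in the Slc2a4 difference was not tested. Slc2a8, an intracellular transporter, was at 10.2, 8.59, 5.15, 6.57 and 4.89 CPM in luminal and 5.92, 7.64, 10.8, 3.88 and 6.47 CPM in basal libraries. These ranges overlapped, with a log2 fold change of 0.034 (SE 0.30, adjusted p = 0.929) whose sign changed with the scaling. Within a library, the log2 ratio of Slc2a1 to Slc2a8 counts was 7.47 ± 0.36 (SD, n = 5) in luminal and 11.16 ± 0.52 (SD, n = 5) in basal cells, a difference of -3.69.

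Such ratios do not depend on how libraries are scaled. In all, 15 isoenzyme ratios were computed and compared with an exact two-sided permutation test over libraries, and 11 of them did not overlap between the cell types. Each of these 11 reached an exact permutation p = 0.00794, the smallest that 5 against 5 libraries can give, with a Benjamini-Hochberg value of 0.0108 over the 15 ratios. The Slc2a1 to Slc2a8 ratio was one of them. Same-numbered luminal and basal libraries were read as coming from 1 animal, and a sign-flip test on these 5 pairs cannot go below 0.0625, so it cannot call any ratio.

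**Figure D2:**
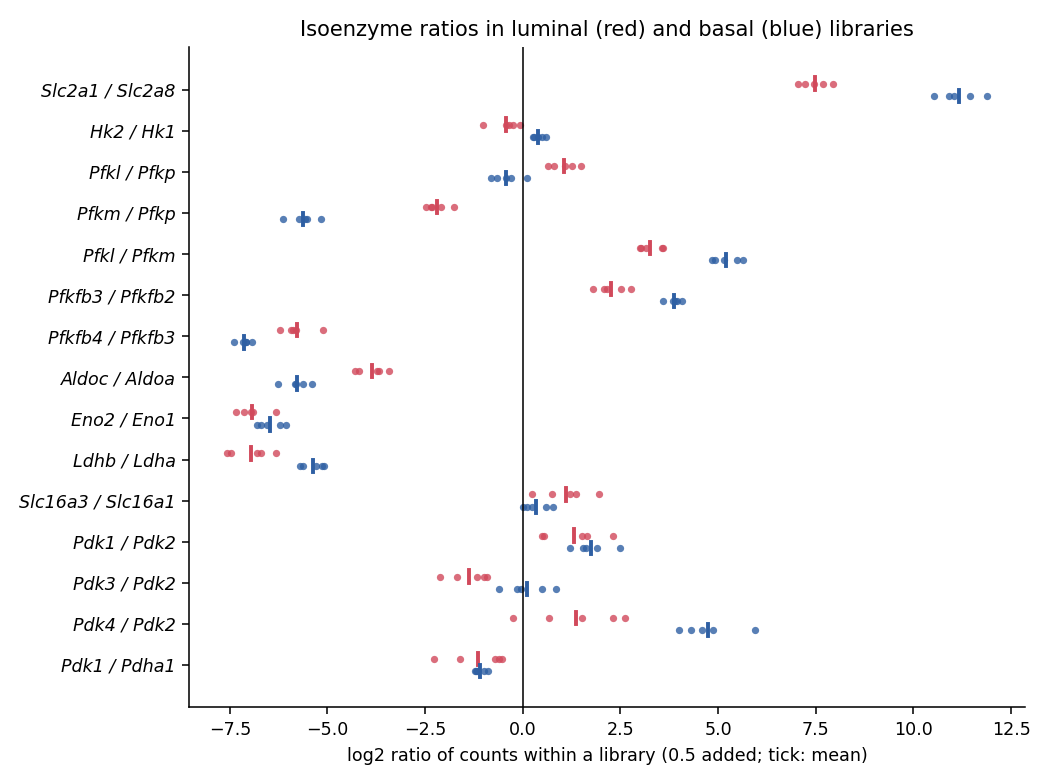
Log2 ratio of the counts of 2 isoenzymes within each library (0.5 added to each count), with luminal libraries in red, basal libraries in blue and a tick at each group's mean. The 2 colours do not overlap for 11 of the 15 ratios and overlap for Eno2/Eno1, Slc16a3/Slc16a1, Pdk1/Pdk2 and Pdk1/Pdha1.

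Of the 3 genes tested at the hexokinase and isomerase steps, 2 were higher in basal cells, where 31.2% of all genes tested were. Hexokinases phosphorylate glucose; Hk1 is the widely expressed form and Hk2 the insulin- and growth-responsive one. Hk1 was at 383, 213, 233, 188 and 245 CPM in luminal and 185, 239, 276, 238 and 202 CPM in basal libraries. Luminal library 1 was the highest of all 10 and the groups overlapped, with a log2 fold change of 0.15 (SE 0.19, adjusted p = 0.513); without that library it was -0.035. Hk2 was at 285, 167, 197, 179 and 120.5 CPM in luminal and 281, 289, 329.6, 309 and 284 CPM in basal libraries. Only luminal library 1 reached the basal range, with a log2 fold change of -0.65 (SE 0.19, adjusted p = 0.00777); on library totals without scaling factors the call was lost (adjusted p = 0.0507).

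The log2 ratio of Hk2 to Hk1 was -0.42 ± 0.36 (SD, n = 5) in luminal and 0.40 ± 0.15 (SD, n = 5) in basal cells, below 0 in every luminal library and above 0 in every basal one (difference -0.82, exact permutation p = 0.00794, adjusted p = 0.0108). Divided by transcript length, as CPM per kilobase (kb) of the longest annotated coding transcript, Hk1 made up 63.1% ± 5.50 of the family in luminal and 49.4% ± 2.55 in basal cells (SD, n = 5). The family's summed level was 93.6 ± 27.2 CPM per kb in luminal and 107 ± 11.7 in basal libraries. Hk3, the hexokinase of blood cells, had 5, 15, 5, 5 and 14 counts in luminal and 5, 3, 0, 0 and 4 counts in basal libraries and was not tested. Gpi1, phosphoglucose isomerase, was at 550.3, 623, 549, 312 and 343 CPM in luminal and 1278, 1379, 1220.1, 1148 and 1052 CPM in basal libraries. It did not overlap between the groups and had a log2 fold change of -1.35 (SE 0.20, adjusted p = 4.59e-05).

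Phosphofructokinase is a tetramer of liver (Pfkl), muscle (Pfkm) and platelet (Pfkp) subunits. Pfkp was at 104, 106, 96.2, 61.2 and 69.98 CPM in luminal and 879, 841, 723, 634 and 699.5 CPM in basal libraries. All basal values were well above all luminal values, with a mean 8.62-fold higher and a log2 fold change of -3.11 (SE 0.19, adjusted p = 6.89e-09). Pfkp shares 748 of its 13401 exon bases with Pitrm1 on the opposite strand, which was at 22.6 ± 2.62 CPM in luminal and 34.2 ± 3.50 CPM in basal cells (SD, n = 5); the part of these reads was not tested. Pfkl was at 221, 167, 168, 173 and 167 CPM in luminal and 552, 482, 582, 678 and 516 CPM in basal libraries. The groups were again apart, with a log2 fold change of -1.65 (SE 0.15, adjusted p = 2.68e-07). Pfkm was at 18.7, 21.1, 18.7, 14.2 and 20.6 CPM in luminal and 12.4, 15.9, 20.2, 13.7 and 14.6 CPM in basal libraries, which overlapped (log2 fold change 0.28, SE 0.18, adjusted p = 0.174; on library totals, adjusted p = 0.0414).

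The make-up of the tetramer's transcripts therefore differed. Per kb of transcript, Pfkl made up 63.6% ± 4.85 of the family in luminal and 44.6% ± 5.88 in basal cells, and Pfkp 27.7% ± 4.39 and 53.8% ± 5.91 (SD, n = 5). The share of Pfkm was 8.63% ± 1.34 in luminal and 1.58% ± 0.333 in basal cells. For Pfkl to Pfkp the log2 ratio was 1.06 ± 0.34 in luminal and -0.43 ± 0.35 in basal libraries (SD, n = 5), a difference of 1.48. For Pfkm to Pfkp the difference was 3.42 and for Pfkl to Pfkm -1.94, each with no overlap (exact permutation p = 0.00794, adjusted p = 0.0108 for each of the 3). The summed level of the 3 subunits was 75.6 ± 9.68 CPM per kb in luminal and 338 ± 18.4 in basal cells.

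**Figure D3:**
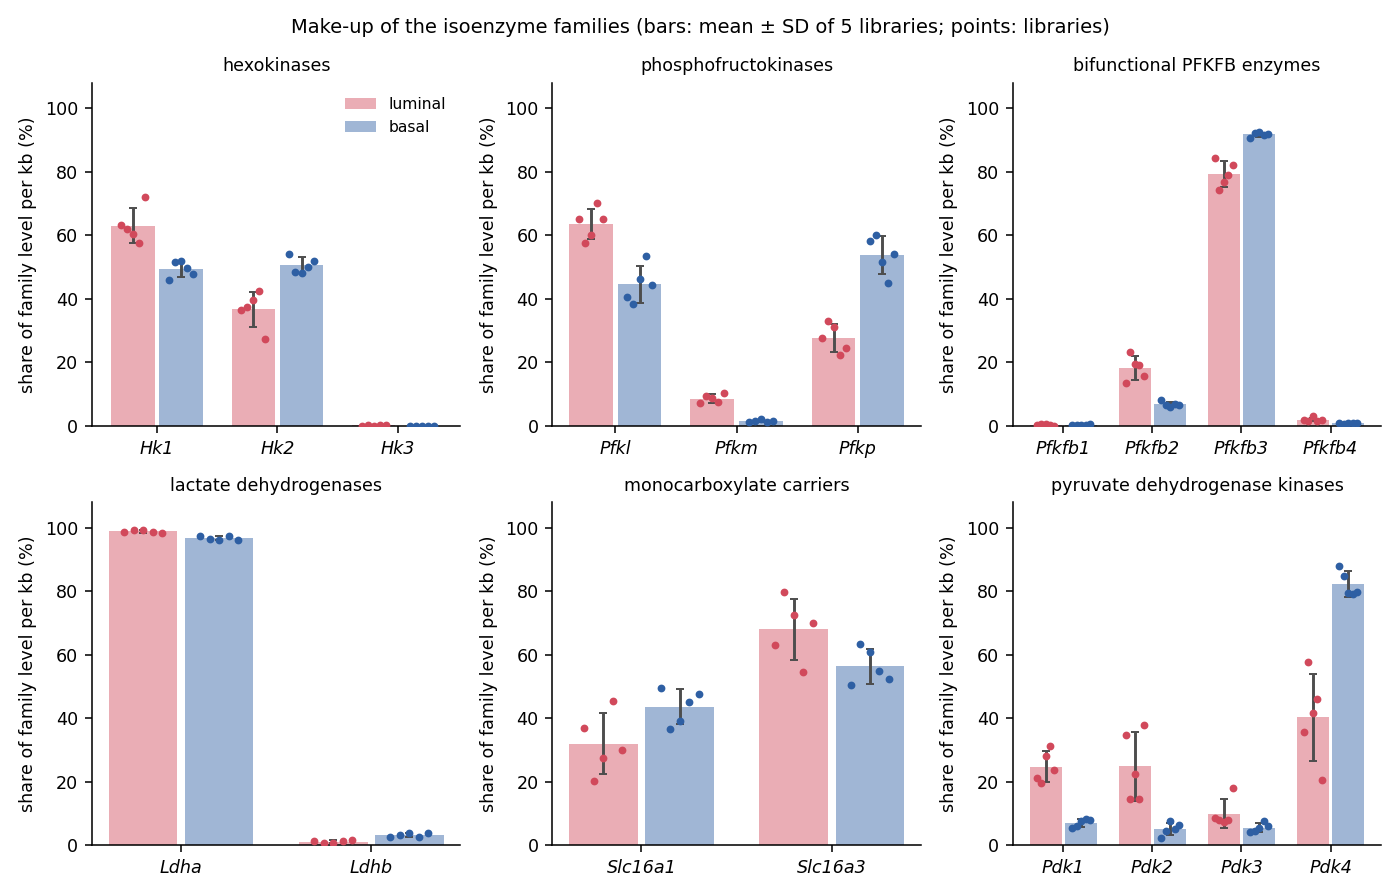
Share of each isoenzyme in its family's summed level per kb of transcript (percent, bars from 0), for 6 families. Bars are means of 5 luminal (red) or 5 basal (blue) libraries with SD, and points are libraries; Pfkp and Pdk4 take the larger share in basal cells and Pfkl and Hk1 in luminal cells.

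The bifunctional PFKFB enzymes make and break fructose 2,6-bisphosphate, the strongest activator of phosphofructokinase. Among the 3 tested, 2 were higher in luminal cells, where 33.6% of all genes tested were. Pfkfb2 was at 64.1, 85.9, 86.6, 78.9 and 54.9 CPM in luminal and 42.03, 29.1, 26.1, 26.8 and 30.9 CPM in basal libraries. The groups did not overlap, with a log2 fold change of 1.26 (SE 0.18, adjusted p = 2.13e-05). Pfkfb4 was low but also apart, at 7.13, 5.00, 10.6, 4.73 and 5.52 CPM in luminal and 3.68, 2.52, 3.17, 2.69 and 3.84 CPM in basal libraries (log2 fold change 1.05, SE 0.28, adjusted p = 0.00506).

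Pfkfb3, the inducible form with the highest kinase to phosphatase activity, was at 436, 297, 368, 353 and 313 CPM in luminal and 503, 432, 437, 388 and 473 CPM in basal libraries. Its basal value was the higher in all 5 same-numbered pairs, with a log2 fold change of -0.34 (SE 0.15, adjusted p = 0.0552). With the replicate number as a block the adjusted p was 0.0485. Leaving out 1 library at a time gave adjusted p-values from 0.0248 (without luminal library 1) to 0.149 (without luminal library 2), under the threshold only for luminal library 1 and basal library 4 (0.0342). DESeq2, its size factors in edgeR, limma voom and no filter on low counts gave 0.0192, 0.0411, 0.0381 and 0.0394. Upper-quartile factors and library totals moved the log2 fold change to -0.21 and -0.14 (adjusted p = 0.196 and 0.408), so whether Pfkfb3 passed depended on the scaling. Per kb, Pfkfb3 made up 79.4% ± 4.07 of the family in luminal and 91.9% ± 0.769 in basal cells, and Pfkfb2 18.2% ± 3.80 and 6.87% ± 0.826 (SD, n = 5). The log2 ratio of Pfkfb3 to Pfkfb2 was lower in luminal cells by a difference of -1.60 (exact permutation p = 0.00794, adjusted p = 0.0108), and that of Pfkfb4 to Pfkfb3 was higher there by 1.34 (exact permutation p = 0.00794, adjusted p = 0.0108). The family's sum was 92.6 ± 11.6 CPM per kb in luminal and 101 ± 10.5 in basal cells. Pfkfb1, the liver form, had 5, 17, 20, 6 and 1 counts in luminal and 7, 7, 8, 12 and 18 counts in basal libraries.

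Aldolase splits fructose 1,6-bisphosphate. Aldoa, its main form outside liver, was at 2041, 1806, 1924, 1577 and 1753 CPM in luminal and 1862, 1783, 2011, 2005 and 1667 CPM in basal libraries. The ranges overlapped almost fully, with a log2 fold change of -0.035 (SE 0.15, adjusted p = 0.848). Aldoc, the form known from brain, was at 159, 136, 105, 80.9 and 162 CPM in luminal and 24.1, 31.4, 47.6, 35.6 and 33.6 CPM in basal libraries. Every luminal value was above every basal one, with a mean 3.73-fold higher and a log2 fold change of 1.90 (SE 0.22, adjusted p = 3.13e-06). Aldoc to Aldoa had a log2 ratio of -3.87 ± 0.36 in luminal and -5.79 ± 0.32 in basal libraries (SD, n = 5; exact permutation p = 0.00794, adjusted p = 0.0108), yet per kb Aldoc remained a minor form, at 3.75% ± 0.880 and 1.01% ± 0.214 of the pair. Tpi1, triose phosphate isomerase, was at 739.6, 642, 614, 603 and 527 CPM in luminal and 692, 619, 688, 767 and 591 CPM in basal libraries, with a log2 fold change of -0.10 (SE 0.14, adjusted p = 0.551).

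Gapdh, which oxidises glyceraldehyde 3-phosphate, was at 243, 283, 233, 125 and 147 CPM in luminal and 292, 296, 298, 286 and 267 CPM in basal libraries. Luminal libraries 4 and 5 were the lowest, and luminal library 2 lay inside the basal range. Gapdh had a log2 fold change of -0.48 (SE 0.20, adjusted p = 0.0493), and the call was lost when luminal library 4 or 5 or any 1 basal library was left out (adjusted p 0.0637 to 0.118) and under upper-quartile factors (0.121) or library totals (0.279). Gapdh has 73 near-identical copies in the genome annotation, 2 of them in the count table, and the treatment of reads that fit several places is not given, so its level is uncertain. With the counts of aligned copies added the log2 fold change was -0.46 and the call was lost (adjusted p = 0.0605).

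Further down the chain, Pgk1, phosphoglycerate kinase, was at 331, 362, 366, 317 and 267 CPM in luminal and 374, 422, 449, 482 and 347 CPM in basal libraries. Its basal value was the higher in all 5 pairs, with a log2 fold change of -0.34 (SE 0.15, adjusted p = 0.0562); with the replicate block the adjusted p was 0.0466. Without luminal library 3, basal library 1 or basal library 5 it was 0.0430, 0.0488 or 0.0441, and without any other single library it was between 0.0652 and 0.130. DESeq2, its size factors in edgeR, limma voom and no filter gave 0.0134, 0.0346, 0.0439 and 0.0372. With upper-quartile factors and on library totals the log2 fold change of Pgk1 shrank to -0.21 and -0.14 (adjusted p = 0.211 and 0.451). Pgam1, the main phosphoglycerate mutase, was at 349, 302, 283, 168 and 204 CPM in luminal and 551, 535, 575, 541 and 459 CPM in basal libraries. The groups did not overlap (log2 fold change -1.03, SE 0.19, adjusted p = 2.86e-04). Pgam2, the muscle form, was low in both, at 4.69, 3.53, 5.40, 0.153 and 3.81 CPM in luminal and 0.437, 2.73, 2.17, 3.06 and 2.58 CPM in basal libraries, with a log2 fold change of 0.68 (SE 0.62, adjusted p = 0.347).

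Bpgm (Entrez 12183, chr6:34476356-34505136, GRCm38) encodes bisphosphoglycerate mutase, which makes 2,3-bisphosphoglycerate, the regulator of haemoglobin, and is best known from red blood cells. It was at 26.9, 24.4, 25.6, 25.7 and 21.4 CPM in luminal and 2.25, 2.52, 4.49, 2.81 and 3.72 CPM in basal libraries. The luminal libraries lay close together and all far above the basal ones, with a mean 7.86-fold higher and a log2 fold change of 2.97 (SE 0.21, adjusted p = 2.53e-08). Per kb it made up 7.28% ± 2.11 of the mutases in luminal and 0.471% ± 0.144 in basal cells (SD, n = 5). The 3 red cell markers found, Hba-a1, Hbb-bt and Alas2, summed to 4.74 to 18.3 CPM in luminal and 0.546 to 2.28 CPM in basal libraries. Among them Hba-a1 was at 9.73 ± 5.18 CPM (SD, n = 5) in luminal cells and at 0.188 CPM or less in every basal library, Hbb-bt was at 0 in all basal libraries, and Alas2 was at 1.46 ± 0.410 CPM in luminal and 1.30 ± 0.696 CPM in basal cells. The part of any red cells left after lysis in the Bpgm difference was not tested.

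Of the enolases, Eno1, the widespread form, was at 539, 562, 516, 350.0 and 396 CPM in luminal and 894, 985, 1030.1, 1167 and 824 CPM in basal libraries. The groups were apart, with a log2 fold change of -1.05 (SE 0.17, adjusted p = 1.02e-04). The copy Eno1b, which aligns to Eno1 at 99.5% identity over 1736 bases, held 43.1% to 52.0% of the counts of the pair in each library, so the split between them is uncertain; with both summed the log2 fold change was -1.13. Eno2, the neuronal form, was at 3.31, 4.48, 3.62, 4.35 and 3.30 CPM in luminal and 9.48, 14.6, 9.83, 10.5 and 11.1 CPM in basal libraries, again without overlap (log2 fold change -1.54, SE 0.21, adjusted p = 2.07e-05). The log2 ratio of Eno2 to Eno1 differed by -0.46 (exact permutation p = 0.0794, adjusted p = 0.0916); leaving out luminal library 4 moved this to -0.62, with an adjusted p of 0.0198. Eno3, the muscle form, was at 5.10 ± 1.79 CPM in luminal and 4.52 ± 0.581 CPM in basal cells (SD, n = 5), with a log2 fold change of 0.17 (SE 0.29, adjusted p = 0.620). Pkm, pyruvate kinase, was at 2253, 1895, 1919.9, 1499.7 and 1537 CPM in luminal and 2204, 2213, 2071, 2283 and 1921 CPM in basal libraries. The ranges overlapped (log2 fold change -0.23, SE 0.16, adjusted p = 0.226), and its M1 and M2 splice forms cannot be told apart from gene counts. Pkm, Gpi1 and Pfkfb2 share 767, 741 and 1262 exon bases with annotated genes that the count table does not list.

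**Figure D4:**
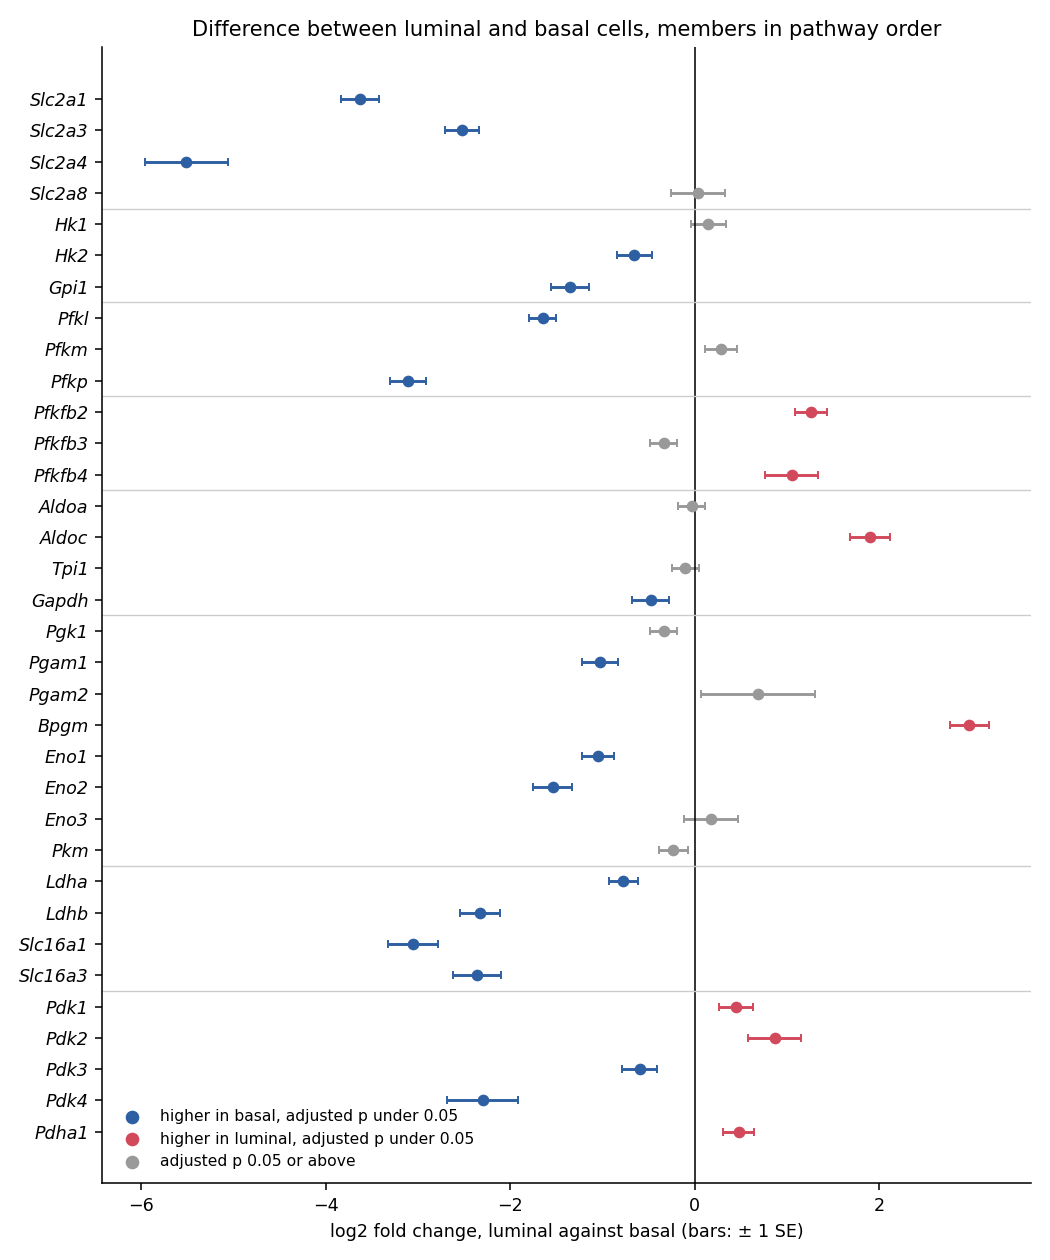
Log2 fold change, luminal against basal, with 1 SE, for the 34 genes tested, in pathway order with grey lines between roles. Points left of 0 are higher in basal and right of 0 higher in luminal cells; 17 basal and 7 luminal genes passed an adjusted p under 0.05 (coloured) and 10 did not (grey).

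The 9 genes whose step rests mainly on 1 gene (Gpi1, Aldoa, Tpi1, Gapdh, Pgk1, Pgam1, Eno1, Pkm and Ldha) were summed in each library. Over 5 libraries each, the sum averaged 6963 ± 1033 CPM (SD) for luminal and 9736 ± 751 CPM (SD) for basal cells, a mean log2 difference of -0.49. The luminal libraries held 8164, 7489, 7390, 5733 and 6041 CPM and the basal libraries 9799, 9858, 9959, 10557 and 8506 CPM. With TMM factors no luminal sum reached the lowest basal sum. On library totals the log2 difference shrank to -0.30 and the groups overlapped, with luminal libraries 1 and 3 at 8615 and 8618 CPM against 8162 CPM in basal library 5. Luminal libraries 4 and 5 were below the other luminal libraries in all 9 genes, under each of the 3 scalings examined (TMM, library totals and DESeq2 size factors). With TMM factors this was so in 15 of the 34 genes tested, Slc2a1, Pfkp and Slc16a3 among them. The share of all genes that were lowest in luminal libraries 4 and 5 was not counted. The pattern is thus not shown to be particular to these genes or apart from a shift of both libraries. Without both of these libraries the difference of the sum was -0.34, and the call of Gapdh was lost (adjusted p = 0.267). Then 16 of the genes were higher in basal and 7 in luminal cells, where 9074 of all 15097 genes tested passed in either direction. That count joins both directions, so the balance of 16 and 7 cannot be judged against it.

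**Figure D5:**
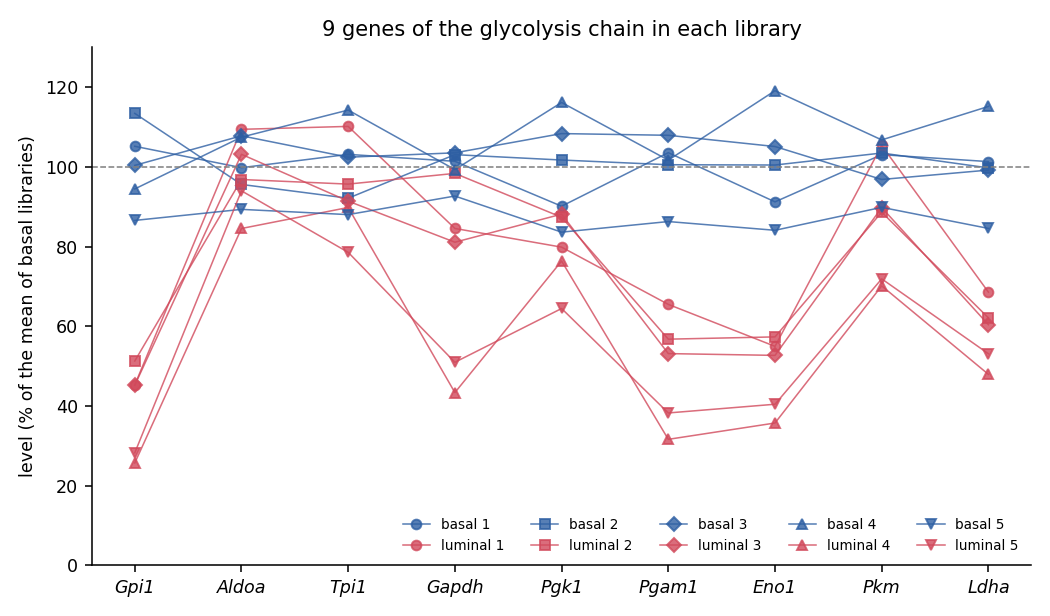
Level of 9 glycolysis genes in each library, as a percentage of the mean of the 5 basal libraries (dashed line at 100), with luminal libraries in red and basal libraries in blue and 1 symbol for each replicate number. Gpi1, Pgam1, Eno1 and Ldha lie below every basal library in all luminal libraries, while Aldoa, Tpi1, Gapdh, Pgk1 and Pkm overlap. Luminal libraries 4 and 5 are the lowest luminal lines at each gene.

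All 4 genes of lactate handling were higher in basal cells, where 31.2% of all genes tested were. Lactate dehydrogenase interconverts pyruvate and lactate, and Ldha and Ldhb encode its muscle and heart subunits. Ldha was at 1118, 1012, 985, 781 and 866 CPM in luminal and 1652, 1626, 1617, 1878 and 1378 CPM in basal libraries. The groups did not overlap, with a log2 fold change of -0.78 (SE 0.16, adjusted p = 5.86e-04). Ldhb was at 10.01, 5.32, 5.52, 7.48 and 10.9 CPM in luminal and 31.7, 41.1, 45.9, 37.8 and 40.6 CPM in basal libraries, also without overlap and with a log2 fold change of -2.33 (SE 0.22, adjusted p = 3.91e-07). Between the subunits, the log2 ratio of Ldhb to Ldha was -6.97 ± 0.54 in luminal and -5.37 ± 0.28 in basal libraries (SD, n = 5; difference -1.60, exact permutation p = 0.00794, adjusted p = 0.0108). Per kb, Ldhb nonetheless stayed at 1.15% ± 0.414 of the pair in luminal and 3.29% ± 0.609 in basal cells, so Ldha transcripts dominated in both.

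Slc16a1 encodes MCT1 and Slc16a3 encodes MCT4, carriers that move lactate with a proton across the cell membrane. Slc16a1 (Entrez 20501, chr3:104638664-104658462, GRCm38) was at 52.4, 22.6, 30.2, 39.8 and 18.8 CPM in luminal and 255, 238, 297, 364 and 209 CPM in basal libraries. The mean was 8.32-fold higher in basal cells, with a log2 fold change of -3.06 (SE 0.27, adjusted p = 2.06e-07). Slc16a3 was at 87.9, 86.7, 77.5, 46.9 and 43.3 CPM in luminal and 254, 403, 449.6, 431 and 226 CPM in basal libraries, with basal libraries 1 and 5 the lowest of the basal group. Its groups also stood apart, with a log2 fold change of -2.37 (SE 0.26, adjusted p = 2.13e-06). The log2 ratio of Slc16a3 to Slc16a1 was 1.10 ± 0.64 in luminal and 0.34 ± 0.33 in basal libraries (SD, n = 5), which overlapped (exact permutation p = 0.0556, adjusted p = 0.0694); without luminal library 4 the difference moved from 0.75 to 0.97 and the adjusted p to 0.0366. Among chaperones of the monocarboxylate carrier family, Bsg (basigin) had a log2 fold change of 0.055 (SE 0.22, adjusted p = 0.843). Emb (embigin) was at 14.2 ± 1.68 CPM in luminal and 200.2 ± 13.4 CPM in basal cells (SD, n = 5). Its log2 fold change was -3.82 (SE 0.14, adjusted p = 5.92e-11). Which carrier each chaperone serves in these cells was not tested. Bsg was chosen after its value was seen.

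The pyruvate dehydrogenase kinases, which inactivate the complex by phosphorylation, were divided between the cell types. Pdk4, the kinase induced by fasting and fatty acids, was at 81.05, 197, 98.2, 80.2 and 27.2 CPM in luminal and 619, 619, 444, 348 and 359 CPM in basal libraries. The groups did not overlap although the luminal values spread widely, with a log2 fold change of -2.30 (SE 0.39, adjusted p = 1.27e-04). Pdk3 was at 11.8, 16.3, 10.6, 8.55 and 14.4 CPM in luminal and 18.1, 20.6, 18.1, 20.2 and 16.4 CPM in basal libraries, just apart (log2 fold change -0.60, SE 0.19, adjusted p = 0.0120; adjusted p = 0.0853 on library totals). Pdk2, a widespread kinase, was at 50.8, 32.4, 34.2, 16.3 and 32.2 CPM in luminal and 10.1, 21.4, 27.5, 14.3 and 18.1 CPM in basal libraries. It overlapped but was higher in the luminal library in all 5 pairs (log2 fold change 0.86, SE 0.29, adjusted p = 0.0177). Pdk1, a target of hypoxia-inducible factor, was at 71.4, 101, 98.5, 81.1 and 46.7 CPM in luminal and 56.8, 65.9, 63.8, 53.3 and 52.7 CPM in basal libraries. Luminal library 5 was the lowest of all 10, with a log2 fold change of 0.45 (SE 0.19, adjusted p = 0.0484). The call was lost when luminal library 2, 3 or 4 or any 1 basal library was left out (adjusted p 0.0588 to 0.148) and with DESeq2, its size factors, limma voom or no filter on low counts (0.0699, 0.0695, 0.0742 and 0.101).

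Per kb, Pdk4 made up 40.4% ± 13.7 of the 4 kinases in luminal and 82.2% ± 3.99 in basal cells (SD, n = 5), and Pdk1 and Pdk2 made up 24.8% ± 4.84 and 24.9% ± 10.95 in luminal against 7.04% ± 1.21 and 5.14% ± 2.02 in basal cells. The log2 ratio of Pdk4 to Pdk2 was 1.37 ± 1.17 in luminal and 4.74 ± 0.74 in basal libraries (SD, n = 5; exact permutation p = 0.00794, adjusted p = 0.0108), and that of Pdk3 to Pdk2 differed by -1.48 (exact permutation p = 0.00794, adjusted p = 0.0108). For Pdk1 to Pdk2 the difference was -0.45 (exact permutation p = 0.294, adjusted p = 0.315). Pdha1, the subunit these kinases phosphorylate, was at 219, 145, 151, 132 and 225 CPM in luminal and 114, 123, 149, 123 and 119 CPM in basal libraries. It overlapped through basal library 3, with a log2 fold change of 0.47 (SE 0.17, adjusted p = 0.0230). The call was lost with no filter on low counts (adjusted p = 0.0556) and without luminal library 5 (0.0693), basal library 1 (0.0589) or basal library 2 (0.0522). Pdha1 shares 603 of its 3734 exon bases with Map3k15 on the opposite strand, which was at 79.4 ± 18.8 CPM in luminal and 53.3 ± 5.82 CPM in basal cells (SD, n = 5); the part of such reads was not tested. The ratio of Pdk1 to Pdha1 differed by -0.045 (exact permutation p = 0.889, adjusted p = 0.889).

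Per kb of transcript, levels were set side by side between genes, but only roughly. The share of reads lost at exon borders or to near-identical copies can differ between genes and was not tested. Gapdh has 73 such copies, and Gpi1, Pgk1, Pgam1, Pkm, Ldha and Ldhb also have copies. The orders below, and the family shares per kb above, are therefore uncertain between genes. In basal cells Slc2a1 stood first at 4642 ± 375 CPM per kb (SD, n = 5), followed by Aldoa at 1204 ± 95.2, Ldha at 898 ± 97.5 and Pkm at 879 ± 59.1, the last 2 within each other's spread. In luminal cells Aldoa stood first at 1175 ± 113 CPM per kb, followed by Pkm at 749 ± 128, Ldha at 525 ± 72.2, Tpi1 at 389 ± 47.8 and Slc2a1 at 376 ± 70.5, the last 2 again within each other's spread. Hk3 had the lowest mean of the 36 in both, though in luminal cells it lay within the spread of Slc2a4 and Pfkfb1. These orders count Eno1 without Eno1b, at 484 ± 65.0 CPM per kb in basal and 233 ± 46.2 in luminal cells (SD, n = 5). Eno1b held 43.1% to 52.0% of the counts of the pair, so the place of Eno1 in both orders is uncertain.

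Genes around the pathway were read from further lists of 69 genes, of which 56 were tested; 19 (33.9%) were higher in basal and 18 (32.1%) in luminal cells, close to the 31.2% and 33.6% of all genes tested. On library totals without scaling factors these were 13 (23.2%) and 23 (41.1%), again close to the 25.4% and 39.1% of all genes. Among 13 tested of 22 other transporters, isoenzymes and carrier partners, 6 (46.2%) were higher in basal and 2 (15.4%) in luminal cells, against 31.2% and 33.6% of all genes, with a median log2 fold change of -0.21 against 0.046 for all genes. Slc5a1, the sodium-coupled glucose transporter SGLT1, was at 19.3 ± 9.35 CPM in luminal and 0.182 ± 0.131 CPM in basal cells (SD, n = 5), with a log2 fold change of 6.66 (SE 0.49, adjusted p = 3.50e-08). Ldhd, the D-lactate dehydrogenase, was at 79.02 ± 14.8 CPM in luminal and 14.7 ± 1.999 CPM in basal cells (log2 fold change 2.42, SE 0.16, adjusted p = 1.50e-08). Slc2a13, a transporter of myo-inositol, was at 0.212 ± 0.102 CPM in luminal and 16.3 ± 7.88 CPM in basal cells (log2 fold change -6.21, SE 0.46, adjusted p = 3.95e-08). Slc5a1 was thus higher in the cells in which Slc2a1, Slc2a3 and Slc2a4 were lower.

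Of 7 pentose phosphate genes, 5 (71.4%) were higher in luminal cells and 1 (14.3%) in basal cells, against 33.6% and 31.2% of all genes, and their median log2 fold change was 0.92. Pgls, 6-phosphogluconolactonase, was at 74.1 ± 17.9 CPM in luminal and 20.1 ± 6.94 CPM in basal cells (SD, n = 5), with a log2 fold change of 1.88 (SE 0.23, adjusted p = 6.84e-06). Tkt, transketolase, had a log2 fold change of 1.30 (SE 0.24, adjusted p = 2.53e-04) and Taldo1, transaldolase, one of 1.22 (SE 0.23, adjusted p = 3.40e-04). Among 9 genes of pyruvate entry, 3 (33.3%) were higher in basal and 1 (11.1%) in luminal cells, against 31.2% and 33.6% of all genes, with a median of -0.21. The last was Mpc2, a subunit of the mitochondrial pyruvate carrier (log2 fold change 1.31, SE 0.26, adjusted p = 5.74e-04), while the pyruvate dehydrogenase phosphatase subunits Pdp1 (-1.75, adjusted p = 1.37e-05) and Pdpr (-1.24, adjusted p = 1.09e-05) were higher in basal cells.

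Of 13 regulators of the pathway, 5 (38.5%) were higher in each cell type, near the 31.2% (basal) and 33.6% (luminal) of all genes, with a median log2 fold change of -0.27. Epas1, hypoxia-inducible factor 2α, was at 15.1 ± 4.55 CPM in luminal and 158 ± 27.7 CPM in basal cells (SD, n = 5), with a log2 fold change of -3.39 (SE 0.22, adjusted p = 1.10e-08). Hif1a, named after its value was seen, had a log2 fold change of 0.68 (SE 0.18, adjusted p = 0.00387). Myc, which activates many glycolytic genes, was at 50.6 ± 9.38 CPM in luminal and 357 ± 65.2 CPM in basal cells (log2 fold change -2.82, SE 0.18, adjusted p = 8.78e-09). Txnip, which limits glucose uptake by promoting the internalisation of GLUT1, was at 4208 ± 909 CPM in luminal and 1134 ± 114 CPM in basal cells (log2 fold change 1.89, SE 0.19, adjusted p = 6.53e-07). Prkaa2, a catalytic subunit of AMP-activated kinase, had a log2 fold change of 2.51 (SE 0.33, adjusted p = 1.13e-05), and Mlxip, a glucose-sensing transcription factor, one of -1.22 (SE 0.16, adjusted p = 1.09e-05).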

How the data were processed

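The deposited table holds raw read counts per gene, 1 column per library, which the authors did not normalise. Per the study's methods, libraries were poly(A)-selected, single-end, trimmed with cutadapt and aligned with Bowtie2 to mm10. The submitters' processing notes give cutadapt 4.2 and Bowtie2 2.3.5.1, while the methods name another Bowtie2 version and none for cutadapt. Bowtie2 does not align across splice junctions. The counting tool, its annotation, strand and multi-mapping settings are not given in the sources used here, and the study describes fewer replicates per condition than the 5 here. Totals averaged 14996000 ± 1649400 counts for luminal and 16318000 ± 1726900 for basal cells (SD, n = 5). Entrez identifiers were matched to symbols in a RefSeq table (GRCm38.p6) for 24570 of 24594 genes.

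Genes were filtered with filterByExpr at its defaults (minimum count 10, total 15), scaled with TMM factors and compared with edgeR's quasi-likelihood test (4.0.16, R 4.3.3), luminal against basal, with Benjamini-Hochberg adjustment over all 14609 genes tested and a threshold of 0.05. For the SE, the absolute log2 fold change was divided by the root of the F statistic. CPM was computed on the TMM-scaled total. Isoenzyme ratios (0.5 counts added) were compared with an exact two-sided permutation test (scipy 1.17.1). Lengths are those of the longest coding transcript (GENCODE M21). Copies were found with BLAST 2.17.0 (at least 95% identity over 500 bases). Tests were checked on simulated data.

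The pairing of luminal with basal libraries comes from the number that opens each description, taken to be the animal. Their deviations from the group means correlated at -0.13 to 0.25 (mean 0.044, against -0.0072 for other pairs). No libraries agreed within sampling noise (lowest chi-square per degree of freedom 14.4).

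The members and lists were chosen with earlier results of these data known. The log2 fold change, SE and adjusted p are given for all 34 members tested. From the other lists, genes are named if they passed an adjusted p under 0.05 with at least a 2-fold change. They also had to reach 10 CPM on average in one cell type. Bsg, Hif1a and Lalba are named besides. Alternatives were DESeq2 1.42.0 and its size factors, upper-quartile factors, library totals, no filter, at least 10 counts in every library, limma voom 3.58.1, a replicate block, a test against a 2-fold change (glmTreat), Eno1b added to Eno1, 3 counts added in the ratios, the chain without Gapdh, and each library left out. Adding the counts of aligned copies, and leaving out luminal libraries 4 and 5 together, were chosen after seeing the data.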

Additional observations from a re-analysis of the deposited data

Results flagged for a closer look

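In 104 groups of 5 libraries (levels of the members and their ratios), the highest or lowest library was set against the others with Dixon's criterion, and 2 groups exceeded it, where chance alone would mark about 1 in 20 groups, or 5.2. Pfkl in luminal library 1 was at 220.6 CPM, while the other luminal libraries lay at 167 to 173 CPM, all below the basal range. Pdha1 in basal library 3 was at 149 CPM, against 114 to 123 CPM in the other basal libraries, which is the library through which Pdha1 overlapped between the cell types.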

How the results depend on the processing

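Totals of 13203146 to 17998165 counts limited the low genes, since Hk3 and Pfkfb1 had too few counts to be tested. Of 746 member fold changes under alternatives, 675 kept their direction and their side of the threshold, 41 lost a call, 16 gained one and 14 changed sign. Relative to TMM, upper-quartile factors moved the median log2 fold change of all genes by 0.12 and library totals by 0.19. A test against a 2-fold change left 10 members higher in basal and 2 in luminal cells, and 3908 of all 14609 genes tested passed it in either direction. The 3908 genes were not split by direction, so the balance of 10 and 2 cannot be judged against them. The sign changes were in genes without a call: Slc2a8 was at -0.0064 with DESeq2 size factors, -0.0067 with DESeq2 and -0.035 with no filter. Aldoa was at 0.086 and Tpi1 at 0.018 with upper-quartile factors, and at 0.16 and 0.090 on library totals. Without luminal libraries 4 and 5, Aldoa was at 0.045 and the ratio of Pdk1 to Pdha1 at 0.18. With 1 library left out at a time, log2 values ranged from -0.13 to 0.24 for Slc2a8 and -0.035 to 0.24 for Hk1. For Aldoa they ranged from -0.075 to 0.011 and for the ratio of Pdk1 to Pdha1 from -0.20 to 0.24. Members higher in basal cells numbered 16 to 18, those higher in luminal cells 5 to 7 and ratios that differed 11 to 13. In these fits 4251 to 4612 of all genes were higher in basal and 4625 to 5012 in luminal cells. With the replicate block, 19 members were higher in basal and 7 in luminal cells, and Pfkfb3 and Pgk1 were the members whose call changed. In that fit 9279 of all 14609 genes tested passed in either direction, slightly more of them higher in luminal than in basal cells. The sign-flip test on pairs called 0 of 15 ratios, since its smallest p is 0.0625. The cause was not tested for the changes not set by the construction of an alternative.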

Other observations

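Glycogen genes were divided between the cell types. Of 10 tested, 4 were higher in basal and 3 in luminal cells, where 31.2% and 33.6% of all genes tested were, and the median log2 fold change was -0.21. Gys1, glycogen synthase, was at 90.1 ± 29.4 CPM in luminal and 485 ± 67.5 CPM in basal cells (SD, n = 5), with a log2 fold change of -2.43 (SE 0.23, adjusted p = 4.31e-07). Gbe1, the branching enzyme, had a log2 fold change of -2.47 (SE 0.16, adjusted p = 1.13e-08). Higher in luminal cells were Gyg, the glycogenin that primes the polymer (log2 fold change 1.52, SE 0.23, adjusted p = 5.39e-05), and Pygl, a glycogen phosphorylase (log2 fold change 1.24, SE 0.30, adjusted p = 0.00253).

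Of the 2 subunits of lactose synthase, B4galt1 was at 138 ± 32.3 CPM in luminal and 67.1 ± 14.9 CPM in basal cells (SD, n = 5), a log2 fold change of 1.04 (SE 0.19, adjusted p = 2.55e-04), and Lalba had too few counts to be tested. Of 6 genes of gluconeogenesis, 3 were tested and 1 (33.3%) was higher in luminal cells, as were 33.6% of all genes tested.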
